A study of Mus musculus with 12 samples.

Results

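The 9 genes described here encode chemokine receptors that guide leukocytes into and through tissues: Ccr1, Ccr2, Ccr3, Ccr4, Ccr6, Ccr8, Cxcr3, Cxcr4 and Cxcr6. They were chosen by name, with earlier results of these data known, and are 9 of the 23352 gene symbols in the deposited expression tables. Regulatory T cells (Tregs, the Foxp3-expressing T cells that restrain immune responses) had been sorted from the spleen and lymph nodes of C57BL/6 female mice and profiled by RNA sequencing. All mice carried Foxp3YFP-Cre on one X chromosome and Foxp3WT on the other. The Ezh2-HET group (Ezh2fl/+) had 1 floxed allele of Ezh2 and the Ezh2-KO group (Ezh2fl/fl) had 2, so that Cre also removes an Ezh2 allele in the HET cells. In such heterozygous females X inactivation leaves Cre active in only some Tregs, and the sources used here do not say how the sort treated YFP. Each genotype was divided into cells with high (CD62Lhi) and low (CD62Llo) surface CD62L, the lymph node homing receptor that activated T cells lose. The sources used here give no age.

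Chemokine receptors are G protein-coupled receptors on the cell surface. Ligand binding releases inhibitory G proteins, which activates integrins and turns the cell towards the ligand. Resting T cells circulate through lymphoid organs with CCR7, whereas activated Tregs acquire receptors that match the ligands of inflamed tissue, skin, gut or lung. Ezh2 is the catalytic subunit of Polycomb repressive complex PRC2, which methylates lysine 27 of histone H3 and in mammals is often bound at promoters rich in CpG dinucleotides.

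The promoter letters are shown for 3 receptors that were called between fractions and for Cxcr4, which was not called in the fit described here. All 9 genes matched RefSeq (build GRCm38.p6), with 10 start sites in all since Ccr6 had 2. Each line gives the 250 bases before the start, 5′ to 3′ on the gene's strand, with every CpG in capitals. The Ccr2 window is chr9:124101933-124102182 (plus strand), that of Ccr4 is chr9:114496545-114496794 (minus strand), that of Cxcr3 is chrX:101734148-101734397 (minus strand) and that of Cxcr4 is chr1:128592300-128592549 (minus strand).
Ccr2: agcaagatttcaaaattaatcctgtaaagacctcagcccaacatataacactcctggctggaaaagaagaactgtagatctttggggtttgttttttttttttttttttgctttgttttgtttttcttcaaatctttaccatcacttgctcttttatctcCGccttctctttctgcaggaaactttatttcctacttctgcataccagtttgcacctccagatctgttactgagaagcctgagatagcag
Ccr4: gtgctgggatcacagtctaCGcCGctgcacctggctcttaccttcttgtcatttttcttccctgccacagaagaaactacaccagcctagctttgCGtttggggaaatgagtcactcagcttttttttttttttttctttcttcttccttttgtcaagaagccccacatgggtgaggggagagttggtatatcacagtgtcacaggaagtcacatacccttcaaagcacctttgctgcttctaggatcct
Cxcr3: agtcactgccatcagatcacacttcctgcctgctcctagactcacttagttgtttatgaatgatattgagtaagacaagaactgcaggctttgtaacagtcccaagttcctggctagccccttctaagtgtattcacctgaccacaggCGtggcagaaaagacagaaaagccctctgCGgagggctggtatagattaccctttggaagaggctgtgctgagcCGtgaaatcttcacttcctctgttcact
Cxcr4: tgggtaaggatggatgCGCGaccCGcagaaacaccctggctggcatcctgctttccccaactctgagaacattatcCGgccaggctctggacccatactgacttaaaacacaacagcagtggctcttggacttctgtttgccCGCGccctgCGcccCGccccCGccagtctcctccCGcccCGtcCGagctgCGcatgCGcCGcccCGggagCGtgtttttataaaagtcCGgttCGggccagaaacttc
The Cxcr4 window held 19 CpG, and 19.7% of all 32841 RefSeq windows of this length held at least as many. Ccr2 had 1 CpG, and Ccr4 and Cxcr3 had 3 each, against a median of 6 over all windows. Among the members not printed, Ccr3 had 0, Ccr1 and Ccr8 had 1 each, Cxcr6 had 3, and the Ccr6 starts had 1 and 7. Windows with at most 3 CpG made up 37.8% of all windows. In letters, TGANTCA (bound by AP-1 factors) stood in the windows of Ccr3 and Ccr4 and in 6.75% of all windows. TGTGGT (Runx) stood in those of Ccr1, Cxcr3 and Cxcr6 and in 14% of all, TCACAC (T-box) in that of Cxcr3 and in 12.3% of all, and GGAAAA (NFAT) in those of Ccr2 and Ccr3 and in 20.4% of all. Both strands were searched and 0 matches of different motifs overlapped in the members' windows. These matches describe the letters, not occupied sites.

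The labels name 3 libraries per group, and the third HET CD62Lhi library (replicate 3) was not used, since by its label the submitters removed it for low read counts. In that library all 9 receptors were at 0, and 589 of its 23846 gene entries were above 0. The other 11 libraries had 10597 to 11024 genes with an FPKM (fragments scaled to transcript length and library size) of 1 or more. The sources used here give no read totals. No label says whether the libraries came from separate animals, so p-values measure the spread between libraries, which may be technical. Ezh2 had an FPKM of 18.2, 17.8 and 20.5 in HET CD62Llo against 12.7 and 12.5 in HET CD62Lhi, and 12.5, 16.8 and 14.4 in KO CD62Llo against 9.15, 11.5 and 11.02 in KO CD62Lhi. Its KO libraries lay below the HET libraries of the same fraction, with an adjusted p of 0.113 in CD62Llo, and the gene-level value does not measure the deletion, since the sources used here do not say which exons are floxed. Foxp3 had 75.9 to 96.8 FPKM in all 11 libraries, and the 6 Treg and T cell markers summed to 721 to 1136. Markers of other cells were present: 8 B cell genes summed to 80.1 to 137.5 FPKM in the CD62Lhi libraries and to 22.9 to 66.2 in the CD62Llo libraries, the highest of these being KO CD62Llo replicate 3. The 6 CD8 T and NK cell markers summed to 30.0 to 45.1 FPKM in CD62Lhi and 13.2 to 19.8 in CD62Llo libraries. Of these, Cd8a and Cd8b1 were lower in CD62Llo in each genotype. Ncr1, Klre1 and Eomes were lower in HET CD62Llo and overlapped between the KO fractions. The NK marker Klrb1c went the other way, with mean FPKM of 2.95 in CD62Llo against 0.355 in CD62Lhi in HET, and 1.33 against 0.286 in KO. For both lists the part in the receptor levels was not tested.

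In Tregs with 1 floxed Ezh2 allele, 7 of the 9 receptors were higher in CD62Llo than in CD62Lhi cells: Ccr1, Ccr2, Ccr4, Ccr6, Ccr8, Cxcr3 and Cxcr6. The same comparison in KO cells called the same 7 higher, and no member lower in either genotype. Between the CD62Llo groups, which share their libraries with those comparisons, these 7 were lower in KO than in HET. Cxcr4 and Ccr3 passed the test in no comparison. Tests used limma on log2(FPKM + 1), with p-values adjusted by Benjamini-Hochberg over the 11431 genes that reached an FPKM of 1 in 2 or more libraries, and a threshold of 0.05. All 9 members passed this filter, Ccr1 and Ccr3 through CD62Llo libraries alone. The 7 called between fractions thus include Ccr1, whose fraction test is tied to that filter.

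These counts stand against a wide background. The members were chosen with earlier results of these data known, so setting them beside all genes is a description, not independent support. Between the HET fractions 27.7% of all tested genes were called, 18.8% being higher in CD62Llo and 8.88% lower. Between the KO fractions 16.2% were called, 11.9% higher and 4.26% lower. Between KO and HET CD62Llo cells 4.6% were called, 1.36% higher in KO and 3.25% lower. The median log2 change over the 9 members was 2.17 in HET and 1.46 in KO for the fractions, and -0.92 for KO against HET in CD62Llo. Over all tested genes these medians were 0.07, 0.05 and -0.03. How the libraries were scaled moved the split of all calls: 67.9% of calls between the HET fractions were higher in CD62Llo as deposited, 46.6% after quantile normalization and 45.0% after median centring, which moved the median of all genes by -0.10. In KO these shares were 73.7%, 54.5% and 50.5%, and among the calls between CD62Llo groups 29.5%, 43.3% and 44.6% were higher in KO. Under both scalings the 7 receptors remained called between fractions in each genotype, and 6 remained called between the CD62Llo groups, Ccr1 being lost.

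**Figure D1:**
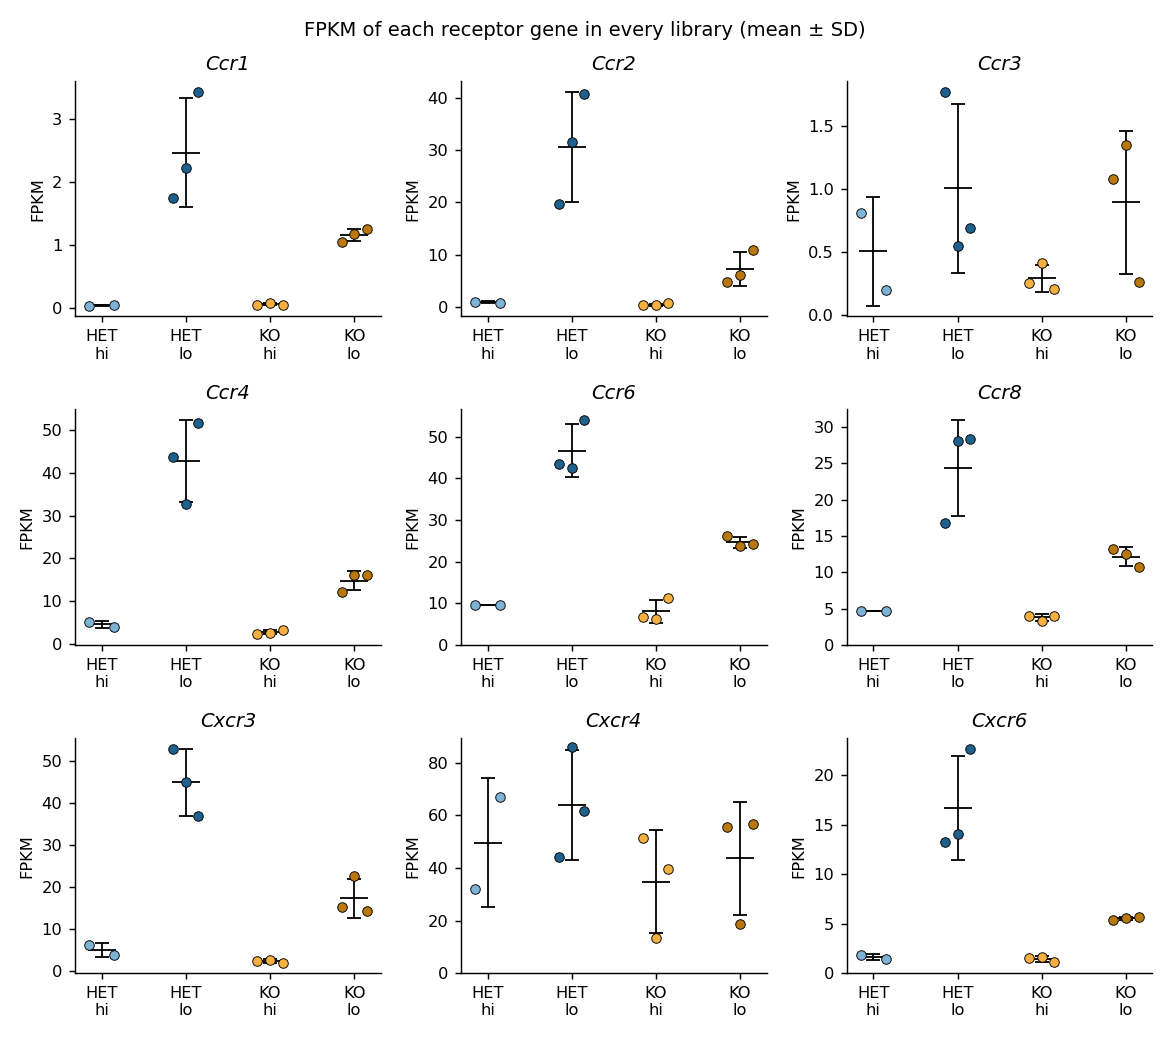
FPKM of each receptor gene (vertical axes, each from about 0) in every library of the 4 groups; points are libraries, horizontal bars are means and error bars are SD, with n = 2 for HET CD62Lhi and n = 3 for the others. For 7 genes all HET CD62Llo points lie above all KO CD62Llo points, which lie above both CD62Lhi groups, whereas the groups overlap for Ccr3 and Cxcr4.

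The libraries separated in the same way. For 7 members every CD62Llo library was above every CD62Lhi library in HET, where 36.1% of all tested genes did so, and likewise in KO, where 24.3% did. For the same 7 every KO CD62Llo library was below every HET CD62Llo library, as for 13.7% of all genes. The order of levels for these 7 was thus HET CD62Llo highest, KO CD62Llo next and the CD62Lhi groups lowest. In bulk samples, fewer receptor-bearing cells and less RNA per cell cannot be told apart. Per length, the means in HET CD62Llo were ordered Cxcr4 (63.9 ± 20.9, SD, n = 3), Ccr6 (46.6 ± 6.43), Cxcr3 (44.9 ± 7.96), Ccr4 (42.8 ± 9.55), Ccr2 (30.7 ± 10.5), Ccr8 (24.4 ± 6.64), Cxcr6 (16.6 ± 5.23), Ccr1 (2.47 ± 0.873) and Ccr3 (1.01 ± 0.670 FPKM). Neighbours in this order overlapped between libraries, except that every Cxcr6 value was above every Ccr1 value.

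CCR4 and CCR8 bind ligands made in skin and at sites of type 2 inflammation, CCL17 and CCL22 for CCR4 and CCL1 for CCR8. Ccr4 had an FPKM of 43.8, 32.7 and 51.7 in HET CD62Llo against 5.16 and 3.99 in HET CD62Lhi, and 12.1, 16.03 and 16.02 in KO CD62Llo against 2.28, 2.59 and 3.21 in KO CD62Lhi. No 2 groups overlapped, and KO was the lower genotype in each fraction. The ratio of means between fractions was 9.35-fold in HET (log2 change 2.96 ± 0.20, SE; limma adjusted p = 1.5e-05) and 5.47-fold in KO (2.09 ± 0.18; 1.2e-04). Between genotypes in CD62Llo, the HET mean was 2.90-fold the KO mean (log2 change -1.46 ± 0.18; limma adjusted p = 0.00373), and this call was kept in all 20 alternatives.

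Ccr8 had an FPKM of 16.8, 28.1 and 28.4 in HET CD62Llo against 4.71 and 4.70 in HET CD62Lhi, and 13.2, 12.5 and 10.7 in KO CD62Llo against 4.02, 3.30 and 4.04 in KO CD62Lhi. The groups again did not overlap, although HET CD62Llo replicate 1 was closer to the KO CD62Llo libraries than to the other 2 HET CD62Llo libraries. The fraction ratio was 5.19-fold in HET (log2 change 2.12 ± 0.20; limma adjusted p = 7.8e-05) and 3.21-fold in KO (1.46 ± 0.18; 6.5e-04). For KO against HET in CD62Llo the log2 difference was -0.92 ± 0.18 (limma adjusted p = 0.0212), a 2.01-fold higher mean in HET. That call was lost without HET CD62Llo replicate 2 (limma adjusted p = 0.0845) or 3 (0.0688), without KO CD62Llo replicate 1 (0.0602) or 3 (0.0710), and with the 2 groups fitted alone (0.1).

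CXCR3 and CXCR6 are receptors of type 1 inflammation and tissue residence, for the interferon-induced ligands CXCL9 and CXCL10 and for membrane-bound CXCL16. Cxcr3 had an FPKM of 52.8, 44.9 and 36.9 in HET CD62Llo against 6.07 and 3.65 in HET CD62Lhi, and 15.1, 22.5 and 14.1 in KO CD62Llo against 2.38, 2.61 and 1.86 in KO CD62Lhi. Here too the 4 groups stood apart. The fractions differed 9.23-fold in HET (log2 change 2.98 ± 0.24; limma adjusted p = 3.4e-05) and 7.55-fold in KO (2.45 ± 0.21; 1.2e-04). The HET CD62Llo mean was 2.60-fold the KO CD62Llo mean (log2 change -1.34 ± 0.21; limma adjusted p = 0.00981, at most 0.0474 in the 20 alternatives).

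Cxcr6 had an FPKM of 13.2, 14.1 and 22.7 in HET CD62Llo against 1.88 and 1.41 in HET CD62Lhi, and 5.37, 5.57 and 5.69 in KO CD62Llo against 1.59, 1.66 and 1.14 in KO CD62Lhi. The CD62Lhi groups overlapped, and the KO CD62Llo libraries lay closer together than those of HET CD62Llo. The fraction ratio was 10.1-fold in HET (log2 change 2.70 ± 0.20; limma adjusted p = 2.3e-05) and 3.79-fold in KO (1.42 ± 0.18; 8.0e-04). In CD62Llo cells the HET mean was 3.002-fold the KO mean (log2 change -1.39 ± 0.18; limma adjusted p = 0.00454, at most 0.0321 in the alternatives). Cxcr6 lies inside the locus of Fyco1, a vesicle transport gene on the opposite strand, and the sources used here do not say whether counting used strand. Fyco1 stayed between 11.2 and 13.6 FPKM in all 11 libraries.

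CCR6 answers CCL20 and directs cells to gut lymphoid tissue and to sites of type 17 inflammation. Ccr6 had an FPKM of 43.4, 42.5 and 54.0 in HET CD62Llo against 9.49 and 9.54 in HET CD62Lhi, and 26.1, 23.7 and 24.1 in KO CD62Llo against 6.66, 6.20 and 11.2 in KO CD62Lhi. Only the CD62Lhi groups overlapped, through KO CD62Lhi replicate 3, which also had the highest summed B cell markers (137.5 FPKM). B cells are known to express Ccr6. In the CD62Llo groups Ccr6 was higher and those markers were lower, and the part of B cell RNA in the Ccr6 level was not tested. The fraction ratio was 4.90-fold in HET (log2 change 2.17 ± 0.20; limma adjusted p = 7.1e-05) and 3.07-fold in KO (1.54 ± 0.18; 5.2e-04). Comparing genotypes in CD62Llo, the HET mean was 1.89-fold the KO mean (log2 change -0.89 ± 0.18; limma adjusted p = 0.0252). Leaving out any of HET CD62Llo replicates 2 (limma adjusted p = 0.0658) and 3 (0.0805) or KO CD62Llo replicates 1 (0.0741), 2 (0.0555) and 3 (0.0732) ended that call.

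CCR2 and CCR1 are inflammatory receptors, for CCL2 and related ligands and for CCL3 and CCL5, and are best known on monocytes. Ccr2 had an FPKM of 19.7, 31.6 and 40.6 in HET CD62Llo against 1.01 and 0.810 in HET CD62Lhi, and 4.68, 6.00 and 10.9 in KO CD62Llo against 0.297, 0.277 and 0.637 in KO CD62Lhi. No groups overlapped, and replicate 3 was the highest CD62Llo library in each genotype. Its fraction ratio was the largest of the receptors that have one, 33.7-fold in HET (log2 change 3.99 ± 0.33; limma adjusted p = 4.4e-05) and 17.8-fold in KO (2.48 ± 0.30; 6.2e-04). In CD62Llo cells the HET mean was 4.27-fold the KO mean (log2 change -1.97 ± 0.30; limma adjusted p = 0.00861), with an adjusted p of 0.0591 when the 2 groups were fitted alone. Of the 50-base stretches of Ccr2 transcripts, 1.91% also occurred in transcripts of other genes, so a small share of its reads could be divided between genes. That share was 0.465% for Ccr4 and 0 for the other 7 receptors.

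Ccr1 had an FPKM of 1.75, 2.22 and 3.44 in HET CD62Llo against 0.0310 and 0.0387 in HET CD62Lhi, and 1.05, 1.17 and 1.25 in KO CD62Llo against 0.0355, 0.0690 and 0.0488 in KO CD62Lhi. It was thus close to 0 in every CD62Lhi library, where the deposited intervals imply about 2.3 fragments in each HET library and 5.5 to 11.9 in the KO libraries, so no fold is given. The log2 change between fractions was 1.72 ± 0.17 in HET (limma adjusted p = 1.1e-04) and 1.04 ± 0.15 in KO (0.00202), values that the added 1 FPKM holds down. Ccr1 passed the filter through CD62Llo libraries alone, so its fraction test is not independent of that selection. With no filter on low values both fraction calls were kept (limma adjusted p = 2.4e-04 in HET). In CD62Llo cells the log2 difference was -0.66 ± 0.15 (limma adjusted p = 0.0441). That call was lost in 16 of 20 alternatives, among them both smaller pseudocounts (0.119 and 0.0503) and the omission of KO CD62Llo replicate 3 (0.0913), with adjusted p from 0.0184 to 0.165 over all of them.

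Summed over 12 myeloid marker genes, the libraries held 121, 66.1 and 55.8 FPKM in HET CD62Llo against 36.2 and 16.4 in HET CD62Lhi, and 161, 290.5 and 37.4 in KO CD62Llo against 19.1, 27.1 and 18.3 in KO CD62Lhi. Of the 7 myeloid markers tested only Lyz2, a macrophage lysozyme, was called between fractions (log2 change 2.22 in HET, limma adjusted p = 0.0423; 3.17 in KO, 0.00833). S100a8 was at 0 in every HET library of both fractions, and S100a9 in every HET library except CD62Llo replicate 1 (0.270 FPKM). KO CD62Llo replicate 2 had the highest sum and KO CD62Llo replicate 3 the lowest of the CD62Llo groups. Ccr1, Ccr2 and the myeloid sum were all higher in the CD62Llo than in the CD62Lhi libraries of each genotype. Lyz2 made up most of that sum in each CD62Llo library: 75.2, 50.8 and 40.1 FPKM in HET and 124, 219 and 25.6 in KO. Of the tested markers, Cd68, Csf1r, Emr1, Mpeg1 and Fcer1g overlapped between fractions in each genotype, whereas Lyz2 and Clec7a did not. Among the HET CD62Llo libraries, Ccr1 and Ccr2 were lowest in replicate 1, which had the highest sum of that group. Among the KO CD62Llo libraries, both genes were highest in replicate 3, which had the lowest sum of that group. In CD62Lhi cells Ccr1 was highest in KO replicate 2 and Ccr2 was higher in HET replicate 1 than in replicate 2, the libraries with the highest sum of their group. The other gene went the opposite way in each: Ccr2 was lowest in KO replicate 2 (0.277 FPKM). Ccr1 was lower in HET replicate 1 (0.0310) than in replicate 2 (0.0387). The part of myeloid RNA in the levels of both genes was not tested.

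CCR3, the eotaxin receptor, is best known on eosinophils. Ccr3 had an FPKM of 1.77, 0.547 and 0.693 in HET CD62Llo against 0.810 and 0.199 in HET CD62Lhi, and 1.08, 1.35 and 0.258 in KO CD62Llo against 0.255, 0.413 and 0.209 in KO CD62Lhi. The groups overlapped in every fraction and genotype comparison. The log2 change between fractions was 0.40 ± 0.32 in HET (limma adjusted p = 0.397) and 0.51 ± 0.29 in KO (0.278), and KO against HET it was -0.19 ± 0.32 in CD62Lhi (adjusted p = 1) and -0.08 ± 0.29 in CD62Llo (0.911). In each of the 4 groups the library with the highest myeloid sum also had the highest Ccr3, and the complement gene C1qb, made by macrophages, had 33.7 FPKM in HET CD62Llo replicate 1 and 51.5 in KO CD62Llo replicate 2. The 8 eosinophil, basophil and mast cell markers summed to 0.778 to 3.51 FPKM over all libraries, and the part of myeloid RNA in the Ccr3 level was not tested.

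CXCR4 binds CXCL12 and serves retention in bone marrow and lymphoid tissue, and it is widely expressed on resting lymphocytes. Cxcr4 had an FPKM of 44.2, 85.8 and 61.6 in HET CD62Llo against 32.2 and 67.0 in HET CD62Lhi, and 55.7, 18.8 and 56.6 in KO CD62Llo against 51.4, 13.4 and 39.6 in KO CD62Lhi. All 4 groups overlapped, and replicate 2 was the highest HET library and the lowest KO library in each fraction. The log2 change between fractions was 0.40 ± 0.63 in HET (limma adjusted p = 0.680) and 0.36 ± 0.56 in KO (0.728). KO against HET it was -0.60 ± 0.63 in CD62Lhi (adjusted p = 1) and -0.64 ± 0.56 in CD62Llo (0.592). With errors of this size that fit did not tell a change from 0, which does not show that the groups were alike.

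**Figure D2:**
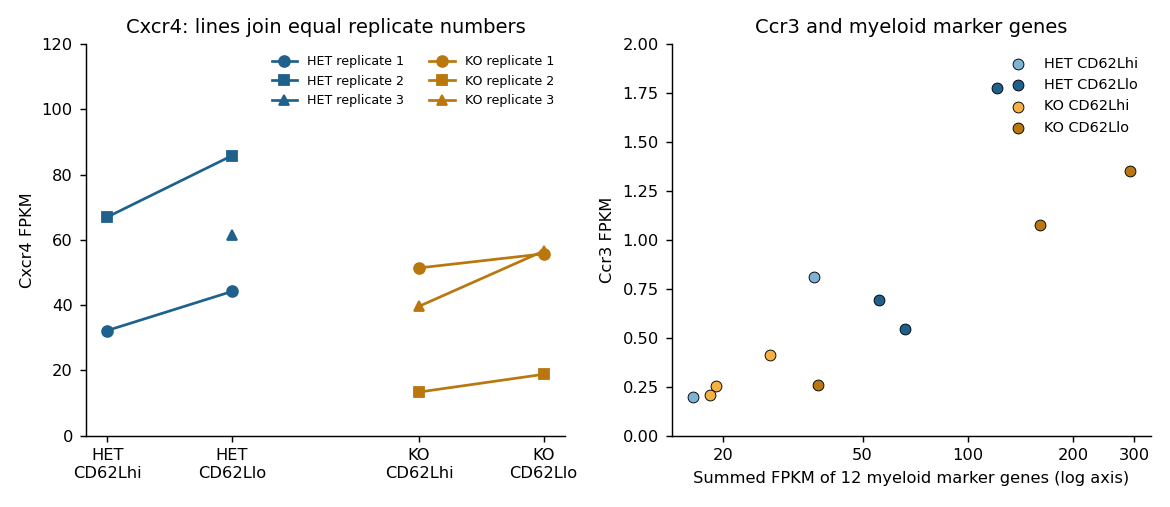
Left, Cxcr4 FPKM by group, with lines joining libraries of the same genotype that carry the same replicate number (HET CD62Lhi replicate 3 was left out; the labels do not say that equal numbers share animals). Right, Ccr3 FPKM against the summed FPKM of 12 myeloid marker genes (log axis) in the 11 libraries; KO CD62Llo replicate 3 (0.258 FPKM) lies with the low libraries at a sum of 37.4.

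Between the CD62Lhi groups limma called 0 of the 9 receptors, and 0% of all tested genes, so a genotype difference was not detectable in these cells. At an unadjusted p under 0.05 there were 328 genes (2.87%), among them Ccr4 (log2 change -0.59 ± 0.20) and Cxcr3 (-0.81 ± 0.24). Ccr2, Ccr4, Ccr8 and Cxcr3 had every KO CD62Lhi library below both HET CD62Lhi libraries, as 14.4% of all genes did. The log2 changes of the other members were -0.45 ± 0.33 for Ccr2, -0.26 ± 0.20 for Ccr6, -0.26 ± 0.20 for Ccr8, -0.11 ± 0.20 for Cxcr6 and 0.02 ± 0.17 for Ccr1. Ccr2 and Ccr1 were low in these cells, where the added 1 FPKM holds changes down. The ratio of KO to HET means was 0.443 for Ccr2, against 0.469 for Cxcr3 and 0.589 for Ccr4. Over the alternatives the Ccr2 change ran from -1.07 to -0.38 and was never called.

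**Figure D3:**
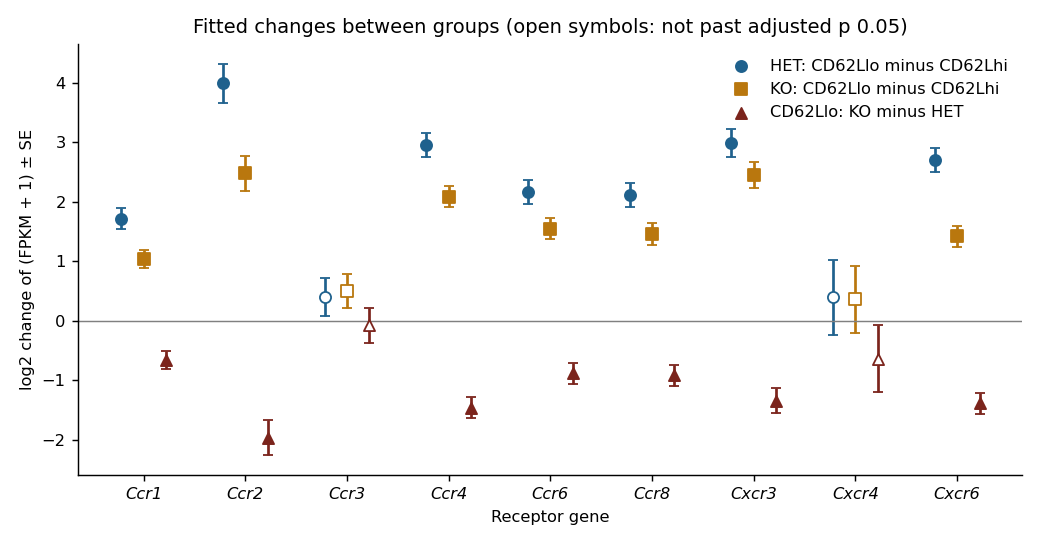
Fitted log2 change of FPKM + 1 (vertical axis) with its SE for each receptor gene (horizontal axis): CD62Llo minus CD62Lhi in HET (circles) and in KO (squares), and KO minus HET in CD62Llo (triangles). Filled symbols have an adjusted p under 0.05; the square lies below the circle in every gene but Ccr3, and Ccr3 and Cxcr4 have open symbols only.

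Whether the fraction difference itself depends on genotype was tested with the interaction, the KO fraction change minus the HET fraction change. No receptor passed, and 1 of 11431 genes did (0.00875%). At an unadjusted p under 0.05 there were 868 genes (7.59%), 6 of them receptors. The estimates were -1.51 ± 0.45 for Ccr2 (limma adjusted p = 0.397), -1.29 ± 0.27 for Cxcr6 (0.240), -0.87 ± 0.26 for Ccr4 (0.430) and -0.68 ± 0.23 for Ccr1 (0.505). Those of Ccr8 (-0.66 ± 0.27), Ccr6 (-0.63 ± 0.27) and Cxcr3 (-0.53 ± 0.32) were smaller, and Cxcr4 (-0.04 ± 0.85) and Ccr3 (0.11 ± 0.43) were close to 0. The estimates of Cxcr4 and Ccr3 changed sign with the libraries used. The added 1 FPKM weighs on receptors that were low in CD62Lhi cells and can move these estimates either way. Over the alternatives the estimate ran from -1.82 to -1.04 for Ccr2, -1.42 to -1.055 for Cxcr6 and -1.14 to -0.49 for Ccr1. The order of Ccr2 and Cxcr6 is therefore not settled.

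Of the 9 receptor genes 6 lie on chromosome 9. Cxcr6 (chr9:123806477-123811754), Ccr1 (123962126 to 123968692), Ccr3 (124021971 to 124031689) and Ccr2 (124102183 to 124109140; all mm10) stand within 302.7 kb, near Ccr9, Xcr1 and Ccr1l1. Ccr4 (114490316 to 114496544) and Ccr8 (120092133 to 120094906) lie apart on the same chromosome. Ccr6 is on chromosome 17 (8236043 to 8257129), Cxcr3 on X (101731536 to 101734147) and Cxcr4 on 1 (128588199 to 128592299). Ccr9, a gut-homing receptor, ran from 4.13 to 8.16 FPKM over all libraries, Xcr1 from 0.488 to 0.959, and Ccr1l1 was above 0 in 1 library only.

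**Figure D4:**
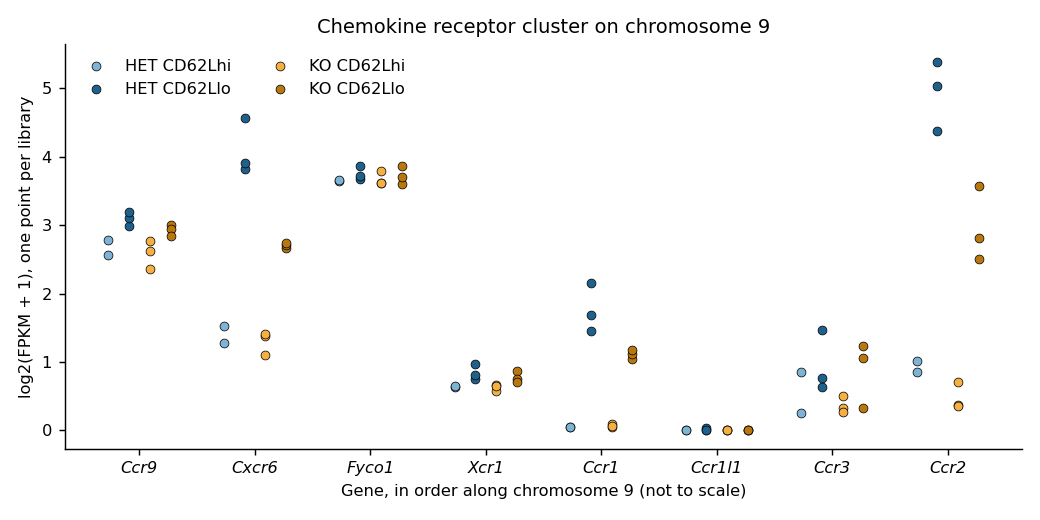
Level of 7 receptor genes of the chromosome 9 cluster and of Fyco1, as log2(FPKM + 1) on the vertical axis, with genes in chromosomal order on the horizontal axis (not to scale) and 1 point per library, coloured by group. For Cxcr6, Ccr1 and Ccr2 the HET CD62Llo points lie above the KO CD62Llo points; the points of Ccr9 and Xcr1 are higher in CD62Llo than in CD62Lhi in each genotype, over a smaller range.

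Of 14 other chemokine receptors 5 passed the filter. Among all tested genes 27.7% were called between the HET fractions, 16.2% between the KO fractions and 4.6% between the CD62Llo groups. Between the HET fractions 3 were called higher and 1 lower: the follicle receptor Cxcr5 (log2 change 2.22, limma adjusted p = 1.4e-04), Ccrl2 (0.98, 0.00455) and Ccr9 (0.42, 0.0293) were higher, and the lymph node receptor Ccr7 was lower (-0.63, 0.0104). Between the KO fractions Cxcr5 was called (1.87, 4.2e-04), 1 of these 5. In CD62Llo cells KO was lower for Ccrl2 (-0.82, limma adjusted p = 0.0296) and higher for Ccr7 (0.60, 0.0327). Cxcr5 had -0.25 ± 0.21 there (0.559), with 62.3, 53.8 and 39.0 FPKM in HET and 43.4, 54.6 and 32.1 in KO, which overlapped.

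Of the 20 chemokine genes that encode ligands of the 9 receptors, 6 passed the filter. Ccl20, the CCR6 ligand, was higher in CD62Llo in HET (log2 change 3.33, limma adjusted p = 1.1e-04) and in KO (2.24, 0.00107), as was the CXCR3 ligand Cxcl10 (2.34, 5.2e-05; 2.06, 1.4e-04). Ccl5 was called in HET alone (1.005, 0.0145; 0.41 in KO, 0.258), and the difference between genotypes was not called (interaction limma adjusted p = 0.710). Between the CD62Llo groups limma called 0 of the 6, where 4.6% of all tested genes were called. At an unadjusted limma p under 0.05 there were 3 of the 6, against 18.9% of all tested genes. The values there were -0.69 ± 0.30 for Ccl20 (0.252) and -0.47 ± 0.18 for Cxcl10 (0.199).

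Of 24 signalling genes that act after the receptors (G protein subunits, arrestins, receptor kinases, Rac and its activators, and RGS proteins) 23 were tested, and 2 were higher and 4 lower between the HET fractions, where 27.7% of all tested genes were called. The RGS protein gene Rgs16 (log2 change 1.93, limma adjusted p = 0.00178; 1.56 in KO, 0.00545) and the G protein subunit gene Gng2 (1.09, 5.0e-05; 0.85, 2.4e-04) were higher in CD62Llo. Pik3r5 (-0.82, 0.00106; -0.49, 0.0143) and the receptor kinase gene Grk6 (-0.48, 0.00121; -0.25, 0.0315) were lower. Between the KO fractions 2 were higher and 3 lower, where 16.2% of all tested genes were called. Between the CD62Llo groups limma called 0 of 23, where 4.6% of all tested genes were called. At an unadjusted limma p under 0.05 there were 3 of the 23, against 18.9% of all tested genes.

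Of 6 genes of lymphoid entry and exit tested, 5 were lower and 1 higher in HET CD62Llo than in HET CD62Lhi. In KO CD62Llo 3 were lower and 3 were not called. Over all tested genes 27.7% were called between the HET fractions, 16.2% between the KO fractions and 4.6% between the CD62Llo groups. In CD62Llo cells 3 were higher in KO: S1pr1, the receptor for exit from lymph nodes (log2 change 0.70 ± 0.10, limma adjusted p = 0.00784), its regulator Klf2 (0.70 ± 0.10, 0.00784) and Ccr7. Without KO CD62Llo replicate 3, the CD62Llo library with the highest sum of B cell markers, the receptor differences between KO and HET CD62Llo were -2.27 for Ccr2 (limma adjusted p = 0.00880), -1.52 for Ccr4 (0.0132), -1.41 for Cxcr6 (0.0169) and -1.22 for Cxcr3 (0.0350), so these 4 remained called. Without it Ccr8 (limma adjusted p = 0.0710), Ccr6 (0.0732) and Ccr1 (0.0913) were no longer called.

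Of 9 adhesion and homing partners 7 were higher and 2 lower in HET CD62Llo, and 6 higher and 1 lower in KO CD62Llo. For these counts and those below, the calls over all tested genes were 27.7% between the HET fractions and 16.2% between the KO fractions. Between the CD62Llo groups they were 4.6%. The gut-homing receptor gene Gpr15 (2.89 in HET, 1.92 in KO) and the αE integrin gene Itgae (2.91, 2.40) had the largest log2 changes. Between the CD62Llo groups 4 were lower in KO: Gpr15 (-1.28, limma adjusted p = 0.00608), the selectin ligand enzymes Gcnt1 (-1.11, 0.00172) and Fut7 (-0.84, 0.0172), and the β1 integrin gene Itgb1 (-0.69, 0.0170). Of 11 lineage transcription factor genes, 6 were higher and 2 lower in HET CD62Llo than in HET CD62Lhi, and 5 were higher and 1 lower between the KO fractions. In KO CD62Llo 3 were lower than in HET, namely Prdm1 (-1.36, limma adjusted p = 0.00512), Rora (-0.87, 0.00411) and Batf (-0.58, 0.0170), and Bach2 was higher (0.57, 0.00386). The type 1 regulator Tbx21, known to control Cxcr3, had -0.51 ± 0.19 (0.174), and Gata3 had -0.35 ± 0.09 (0.0722).

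Over the 11 libraries the 7 called receptors tracked each other, with Pearson r of log2(FPKM + 1) from 0.935 to 0.986 in their 21 pairs, a description that rests on the 4 group levels they share. Among other genes with a mean of at least 5 FPKM in some group the profile most like Ccr4 was that of Gpr15 (r = 0.996), for Ccr6 it was Cldn25 (0.996) followed by Itgb1 (0.993), for Cxcr6 Adam8 (0.996), for Ccr2 Fam216a (0.996), for Cxcr3 Gadd45b (0.992), for Ccr8 Bcl2a1a (0.991) and for Ccr1 Hspa5 (0.990). The immune checkpoint ligand gene Pdcd1lg2 was among the 3 genes most like Ccr1, Ccr2 and Cxcr6. Ccr3 was most like Cfp (0.957) and C1qb (0.954), and Cxcr4 was most like Rbm12b1 (0.913), Rbm12b2 (0.892) and the splicing factor gene Srsf1 (0.868).

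The authors' deposited table of 1 pooled FPKM per group listed Ccr2 at 1.42 in HET CD62Lhi, 39.6 in HET CD62Llo, 0.570 in KO CD62Lhi and 9.36 in KO CD62Llo. In the authors' deposited table Cxcr4 stood at 67.7, 80.04, 49.7 and 58.7 in that order. The 7 receptors had the same order of CD62Llo groups in the authors' deposited table as in the libraries, for example 21.4 in HET and 7.32 in KO for Cxcr6.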

How the data were processed

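Poly(A) RNA of sorted Tregs was sequenced as single ends of 50 bp. Per the submitters' processing notes, CASAVA 1.8.2, FastQC, TopHat and Cufflinks 2.1.1 were used on mm10, and the sources used here give no settings. The authors deposited an FPKM per gene and library, with interval bounds, and 1 pooled FPKM table. Of the 99 receptor values used, 22 lay above their own deposited upper bound, so depths implied by the bounds (read as 2 SD each side) are rough.

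FPKM of symbols with several entries were summed. In R 4.3.3, limma 3.58.1 fitted log2(FPKM + 1) with 4 group means over 11 libraries, trended empirical Bayes, and Benjamini-Hochberg adjustment over the 11431 genes that reached an FPKM of 1 in 2 or more libraries. The added 1 understates changes of low genes between groups, and it can move their interaction estimates either way. Contrasts were the fractions in each genotype, the genotypes in each fraction, and the interaction. The fit was tested on simulated data. Members and gene lists were chosen with earlier results of these data known. All members were named, with up to 4 called genes of each other list per comparison; some others listed in the text (Fyco1, C1qb, Xcr1, Ccr1l1) were named after their values were seen. Likeness used the 3 genes with the highest Pearson r.

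Labels give groups equal replicate numbers and name no shared animal. Deviations from group means correlated between same-numbered KO and HET CD62Llo libraries at r = 0.165, 0.153 and 0.148. On this correlation alone the numbers were taken as pairs there, which does not show that the libraries were paired. Alternatives covered pseudocounts, filters, scaling, trend, a replicate block, the 2 groups alone and each library left out. Promoter windows are RefSeq's, cut to the 250 bases before each start. Some genes of the other lists are not reported here and are not in the lists' counts.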

Additional observations from a re-analysis of the deposited data

How the results depend on the processing

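Over the alternatives run, the 7 receptors called between fractions were called in every one, in HET and in KO, and 0 receptors were called between the CD62Lhi groups or in the interaction. Between KO and HET CD62Llo only Ccr4, Cxcr3 and Cxcr6 were called in every alternative. That count of 7 was 4 with the 2 groups fitted alone, and 4 to 7 when leaving out 1 library (4 without HET CD62Llo replicate 2 or 3 or KO CD62Llo replicate 1 or 3, and 5 without KO CD62Llo replicate 2). Calls over all genes there (155 higher, 371 lower) were 28 and 94 with the groups alone, 43 and 134 without HET CD62Llo replicate 2, and 55 and 134 without KO CD62Llo replicate 1; the cause was not tested.

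The replicate block kept all 7 receptor calls between the CD62Llo groups, with limma adjusted p from 0.00388 (Ccr2) to 0.0341 (Ccr1), and changed no other receptor call. There the numbers were taken as pairs on correlation alone, since no label names a shared animal. The main fit used no pairs. Between fractions the numbers were not taken as pairs, with r = 0.135 and 0.073 in HET and 0.131, 0.068 and 0.178 in KO. The KO replicate 2 libraries were not each other's closest match. The highest of these r was above the highest between the CD62Llo groups (0.165), so the 2 cases differ little in strength. A replicate block within genotype, chosen after the Cxcr4 values were seen, called Cxcr4 higher in CD62Llo in HET (log2 change 0.40, limma adjusted p = 0.0359) and in KO (0.36, 0.0339), making 8 receptors called in each; the CD62Llo library was the higher of the same-numbered libraries in all 5 cases, by 1.08 to 1.43-fold.

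Changes of sign were limited to uncalled values. Ccr1 between the CD62Lhi groups became -0.0327 after quantile normalization and -0.0514 with the replicate block, which also turned the interactions of Ccr3 (-0.0272) and Cxcr4 (0.11). Leaving out 1 library gave ranges of -0.12 to 0.91 (HET) and -0.20 to 0.87 (KO) for the Cxcr4 fraction change and -0.60 to 0.48 for its interaction, -0.49 to 0.11 (CD62Lhi), -0.26 to 0.19 (CD62Llo) and -0.19 to 0.41 (interaction) for the genotype changes of Ccr3, and -0.23 to 0.0219 for Cxcr6 in CD62Lhi.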
